A study of Mus musculus with 12 samples.

Results

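Of the 49585 genes counted in sorted mouse Sertoli cells and the 21823 counted in cultured ones, 9 are described here: the long noncoding RNAs Malat1, Neat1, Meg3, Gas5, Snhg1, Snhg12, Kcnq1ot1 and Gm26917, and the protein-coding gene Ccnb1ip1. All 9 are listed for the sorted cells, and Ccnb1ip1 is the one member listed for the cultured cells. The noncoding RNAs were chosen by name. Ccnb1ip1 was chosen for its measured values, as the gene with the highest mean count in the cultured input and the lowest PTBP1 immunoprecipitate over input, so those values are given below as a description with no test.

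Sertoli cells nurture the germ cells within the seminiferous tubule, and PTBP1, the polypyrimidine tract binding protein, binds pyrimidine-rich RNA and regulates splicing. The cKO libraries (3) came from Sertoli cells sorted from testes with both Ptbp1 alleles floxed (AmhCre; Ptbp1 flox/flox; mTmG), and the control libraries (3) from cells with one floxed and one wild-type allele (AmhCre; Ptbp1 flox/wt; mTmG). AmhCre, driven from the promoter of the Sertoli cell hormone gene Amh, and the mTmG membrane colour reporter were thus carried by both groups, and a control cell can lose one Ptbp1 copy. Polyadenylated RNA was sequenced from both. The PTBP1 immunoprecipitates (IP, 3) and their inputs (3) came from wild-type Sertoli cells in primary culture and were made from total RNA. Neither the age of the animals nor a control-antibody immunoprecipitate is given in the labels. Nothing in them tells separate animals or cultures from repeat preparations, so the spread behind every p-value may be technical.

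Total counts were 11980474 to 13750181 in cKO, 12813037 to 13503686 in control, 26725003 to 28796396 in IP and 12894035 to 15315115 in input libraries. Levels are CPM, counts scaled to a common library total after TMM scaling. Ptbp1 was at 7.71, 7.99 and 7.64 CPM in cKO libraries 1, 2 and 3, against 249, 251 and 241 CPM in control libraries 1, 2 and 3, which fits the labels. Sertoli cell markers were present in both sorted groups, with a summed level over 16 genes of 16622 to 17726 CPM in cKO and 23897 to 24874 CPM in control libraries, and 11 of the 16 fell by the test described below, by which 17.6% of all genes were higher and 21.4% lower. Of 23 spermatocyte and germ cell markers, 19 were tested, 9 rose and 2 fell, beside the same 17.6% and 21.4%, and their summed level was 1071 to 1105 CPM in cKO and 859 to 993 CPM in control libraries. Of the 23 markers, 22 had counts in the sorted libraries, among them the late spermatid genes Prm2, Tnp1 and Tnp2. Only the late spermatid marker Prm1 was listed at 0 in every sorted library. Summed over 13 Leydig and peritubular myoid markers, levels were 253 to 310 CPM in cKO and 386 to 399 CPM in control libraries. Over 15 blood, endothelial and macrophage markers they were 161 to 177 CPM in cKO and 145 to 203 CPM in control libraries. In bulk RNA, fewer cells of a type and less RNA per cell cannot be told apart, and the part of these markers in the results below was not tested. Control library 3 stood apart in its mitochondrially encoded genes, and cKO library 3 in a haemoglobin gene. The summed level of the mitochondrially encoded genes was 42148, 50677 and 55114 CPM in the cKO and 30464, 33546 and 58802 CPM in the control libraries, and the haemoglobin gene Hbb-bs was at 23.8 CPM in cKO library 3 and at 0.841 to 4.07 CPM in the other 5.

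As background, long noncoding RNAs act as RNA and are not translated into a functional protein. Malat1 and Neat1 are neighbours on one chromosome and are retained in the nucleus: Malat1 collects in nuclear speckles, where splicing factors are stored, and Neat1 is the scaffold of paraspeckles. Gas5, Snhg1 and Snhg12 are spliced host genes whose introns yield small nucleolar RNAs (snoRNAs), the guides for chemical modification of ribosomal RNA, while the spliced exons are degraded by nonsense-mediated decay when translated. Gas5 and Snhg1 belong to the transcripts that begin with a pyrimidine tract, as ribosomal protein mRNAs do. Meg3 and Kcnq1ot1 are imprinted, the first transcribed from the maternal and the second from the paternal chromosome, and Kcnq1ot1 silences neighbouring genes in cis. Gm26917 is a predicted gene of the Ensembl annotation next to a copy of the 18S ribosomal RNA gene. Ccnb1ip1, also called HEI10, encodes a RING-finger protein that acts in meiotic crossing over in spermatocytes.

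The start sites of the 3 snoRNA hosts that rose in the cKO are shown first, with Malat1 beside them, since PTBP1 binds pyrimidines. Each line gives 50 bases before and 50 bases from the start, 5′ to 3′, from the RefSeq start windows of build GRCm38.p6. Capitals mark the unbroken run of C and T that covers the start base.
Gas5, second of 2 starts, chr1:161035116-161035215, plus strand: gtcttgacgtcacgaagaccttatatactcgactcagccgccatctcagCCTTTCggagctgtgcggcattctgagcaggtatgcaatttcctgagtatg
Snhg1, chr19:8723437-8723536, plus strand: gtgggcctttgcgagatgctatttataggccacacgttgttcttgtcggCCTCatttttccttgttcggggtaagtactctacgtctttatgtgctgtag
Snhg12, chr4:132308628-132308727, plus strand: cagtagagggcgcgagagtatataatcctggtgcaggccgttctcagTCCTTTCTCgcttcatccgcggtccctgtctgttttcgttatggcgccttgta
Malat1, chr19:5802623-5802722, minus strand: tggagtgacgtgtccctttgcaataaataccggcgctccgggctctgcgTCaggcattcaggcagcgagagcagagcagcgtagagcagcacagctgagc

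The run was 9 bases long in Snhg12, 6 in Gas5, 4 in Snhg1 and 2 in Malat1. These lengths include bases before the start, which are not transcribed from it: 3 in Snhg12 and 1 each in Gas5, Snhg1 and Malat1. Of all 32851 start windows, with the run measured the same way, 3.03% had at least 9 bases, 7.25% at least 6, 14% at least 4 and 24.4% at least 2. The first listed start of Gas5 and the starts of Meg3, Kcnq1ot1 and Ccnb1ip1 had no C or T at the start base, which 30.0% of all windows have. The PTBP1-type motifs TCTT, TTCT and CTCTCT were then counted on the sense strand in the 50 transcribed bases, where TCTT and TTCT can overlap. Snhg1 held TCTT, and the second start of Gas5, Snhg12 and the second listed start of Meg3 each held TTCT. Malat1, Kcnq1ot1, Ccnb1ip1 and the first starts of Gas5 and Meg3 held none of the 3. Over all windows TCTT was present in 18.6%, TTCT in 21.6% and CTCTCT in 2.51%. Of the 9 members 7 had a start window, and Neat1 and Gm26917 are named only.

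The comparison of cKO with control cells asked which of these RNAs differ when Sertoli cells lose Ptbp1. Gas5, Snhg1, Snhg12, Malat1 and Neat1 rose, by between 1.503-fold and 2.10-fold, and Gm26917 fell to 0.458 of its control level. Meg3 and Ccnb1ip1 were too low to be tested, and Kcnq1ot1, which has no annotated transcript in the table, was not measured. The test was edgeR's quasi-likelihood test on the counts, two-sided, with Benjamini-Hochberg adjustment over all 13405 genes that passed the filter on low counts and a threshold of 0.05. Of those genes 17.6% (2359) were called higher and 21.4% (2870) lower. Every CPM of the cKO was above every CPM of the control for 23.0% of them and below for 26.8%. With library size alone as the scaling, the split was 3476 higher and 1863 lower, and the median log2 fold of all genes moved to 0.17.

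**Figure D1:**
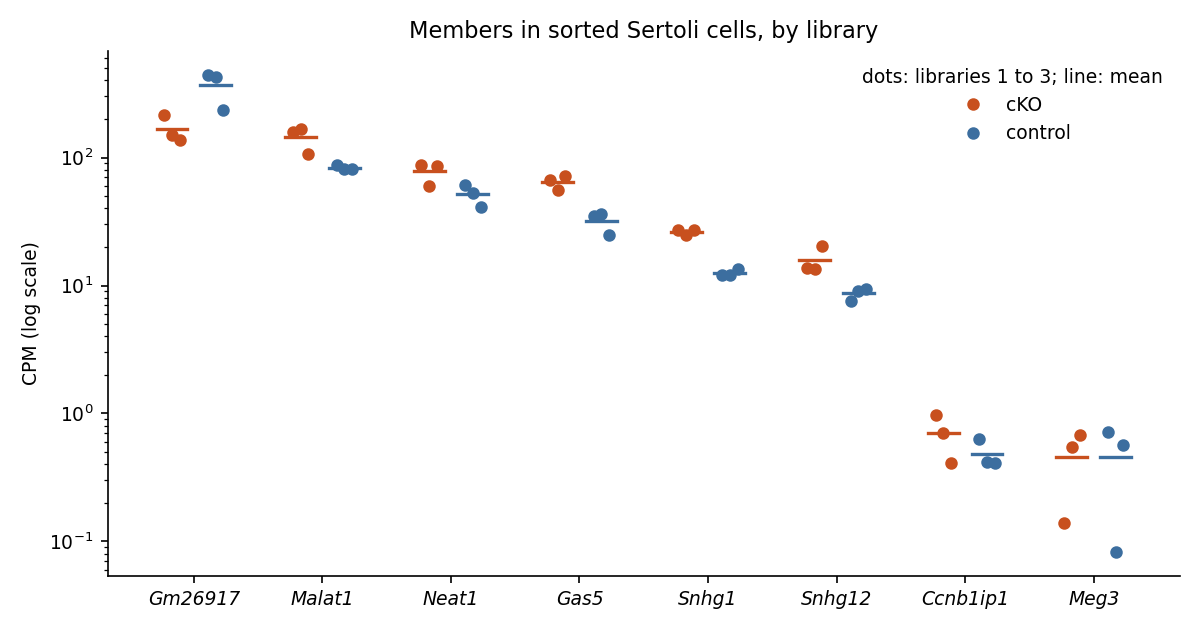
Levels of the members in sorted Sertoli cells, in CPM on a log axis; each dot is a library, each line the mean of 3, cKO (orange) left of control (blue). Gas5, Snhg1, Snhg12 and Malat1 lie above control in all 3 cKO libraries, Neat1 overlaps, Gm26917 lies below control, and Ccnb1ip1 and Meg3 stay under 1 CPM; Kcnq1ot1, listed at 0, is not drawn.

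Gas5 had 952, 709 and 1058 counts in cKO libraries 1, 2 and 3, against 439, 436 and 307 counts in control libraries 1, 2 and 3. At 64.8 ± 8.50 CPM in cKO and 32.0 ± 6.14 CPM in control cells (SD, n = 3 each), its groups did not overlap. The log2 fold was 1.02 (SE 0.16, edgeR adjusted p = 5.16e-04). Its lowest library was control 3, and the log2 fold was 0.77 without library 3 of both groups, still called (edgeR adjusted p = 5.51e-05).

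Snhg1, which hosts snoRNAs in nearly all of its introns, was the member with the smallest p. It had 386, 316 and 399 counts in the cKO libraries, against 152, 145 and 166 counts in the control libraries. Its level was 26.3 ± 1.38 CPM in cKO and 12.5 ± 0.837 CPM in control cells (SD, n = 3 each), a narrow spread in both groups with a wide gap between them. The log2 fold was 1.07 (SE 0.14, edgeR adjusted p = 2.35e-04).

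Snhg12 had 195, 173 and 299 counts in the cKO libraries, against 95, 110 and 116 counts in the control libraries. Every cKO library was above every control library, and cKO library 3 was the highest. The means were 15.9 ± 3.93 CPM in cKO and 8.71 ± 1.01 CPM in control cells (SD, n = 3 each; log2 fold 0.87, SE 0.21, edgeR adjusted p = 0.00635).

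The introns of these hosts carry the snoRNAs themselves, but those were not measured. The listed exons cover all of the annotated span of Snhg1, 91.3% of that of Gas5 and 69.3% of that of Snhg12. Whether the counted reads came from spliced RNA or from RNA that keeps introns was not examined here. Of the annotated genes that overlap Gas5 by position, 10 of 11 have no annotated transcript in the deposited table, as do all 8 that overlap Snhg1 and all 5 that overlap Snhg12. That table lists 17474 genes that have no annotated transcript. All of them are at 0 in every library, so such a 0 sets no limit. The eleventh gene that overlaps Gas5 is Zbtb37, a zinc-finger gene whose annotated end shares 428 bases with it. Zbtb37 was at 55.1, 46.6 and 32.6 CPM in cKO and 39.4, 33.7 and 30.8 CPM in control libraries (log2 fold 0.37, edgeR adjusted p = 0.124). How reads in the shared stretch were assigned is not given in the sources used here.

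Other snoRNA host RNAs were then counted from a list. Of 17 listed, 15 were in the sorted table, 12 were tested, 6 rose and 0 fell, beside 17.6% higher and 21.4% lower over all genes tested. Of the 12, 11 had a log2 fold above 0. Their median log2 fold was 0.76, against 0.00 over all genes tested. Snhg5 had the smallest p among them, at 32.4, 32.7 and 40.2 CPM in cKO and 18.0, 18.6 and 14.98 CPM in control libraries (log2 fold 1.03, SE 0.15, edgeR adjusted p = 3.62e-04). Snhg6, Zfas1 and Snhg8 rose by 0.84, 0.84 and 0.98 on the log2 scale, Snhg15 by 0.68 and Snhg3 by 1.43. Snhg3 was low, at 1.37 to 2.94 CPM in cKO and 0.332 to 1.14 CPM in control libraries, and passed at an edgeR adjusted p of 0.0499. Snhg18 was the host with a log2 fold below 0 (-0.31, edgeR adjusted p = 0.256), and Snhg17, Snhg20 and Epb41l4aos were at 0.19, 0.34 and 0.12 without passing. With 1 library left out, between 4 and 6 of the 12 rose.

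**Figure D2:**
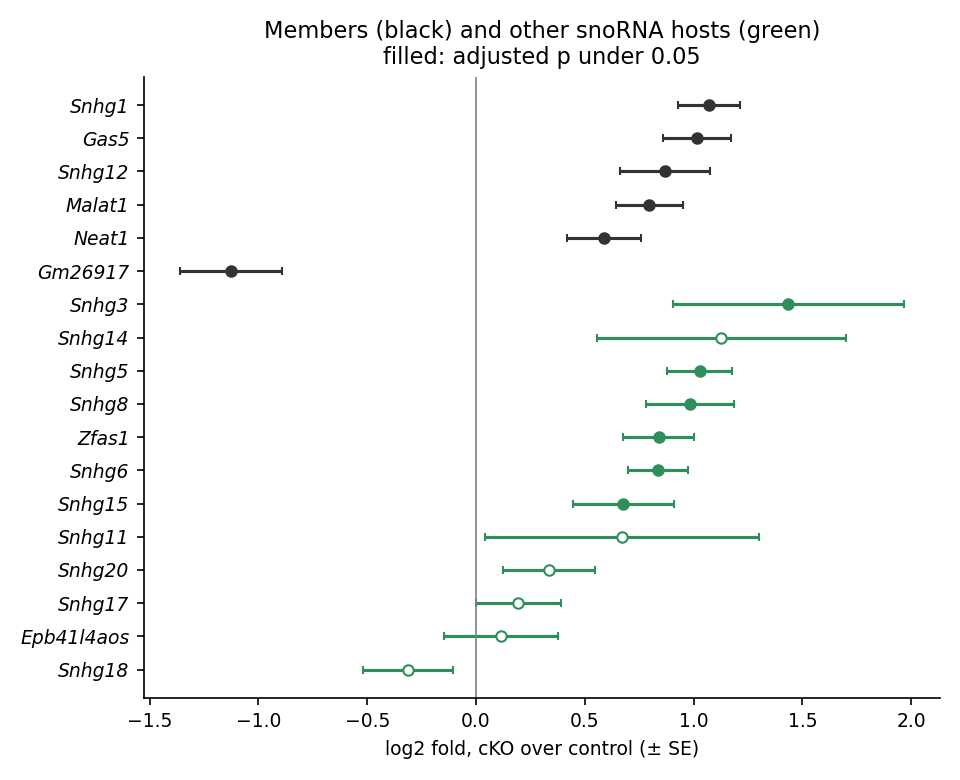
Log2 fold of cKO over control with its standard error for the 6 tested members (black) and 12 other snoRNA host RNAs (green), filled where the adjusted p is under 0.05. The 3 member hosts Snhg1, Gas5 and Snhg12 lie between 0.87 and 1.07, Gm26917 stands at -1.13, and 6 of the 12 other hosts are filled, all to the right of 0.

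Since the spliced host RNAs are substrates of nonsense-mediated decay, the factors of that pathway were read from a list. Of 14 tested, 4 rose and 3 fell, beside 17.6% and 21.4% of all genes, with a median log2 fold of -0.00. Upf3b, which bridges the exon junction complex to the decay machinery, was at 168, 174 and 169 CPM in cKO and 80.0, 89.3 and 82.8 CPM in control libraries (log2 fold 1.02, SE 0.10, edgeR adjusted p = 6.24e-05). Upf2, its binding partner, rose by 0.74. The exon junction core helicase Eif4a3 and the kinase cofactor Smg9 fell by 0.63 and 0.57.

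Malat1 had 2279, 2148 and 1561 counts in cKO libraries 1, 2 and 3, against 1101, 984 and 992 counts in the control libraries. The 3 control libraries were close together and cKO library 3 was nearest to them, with no overlap. The level was 145 ± 33.4 CPM in cKO and 83.3 ± 3.67 CPM in control cells (SD, n = 3 each; log2 fold 0.80, SE 0.15, edgeR adjusted p = 0.00199). Without library 3 of both groups the log2 fold was 0.94 (edgeR adjusted p = 8.79e-07). The 3 genes most like Malat1 over the 6 sorted libraries, by the root mean square difference of centred log2 CPM among the 9575 genes that averaged at least 3 log2 CPM, were Zfp946 (0.057), Nek1 (0.066) and C2cd5 (0.071). Zfp946, a zinc-finger gene, was at 36.6, 38.7 and 25.5 CPM in cKO libraries, with library 3 the lowest there too.

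Neat1 had 1252, 763 and 1260 counts in the cKO libraries, against 768, 637 and 509 counts in the control libraries. The groups overlapped, since cKO library 2 was at 59.8 CPM and control library 1 at 61.1 CPM. The means were 77.8 ± 15.7 CPM in cKO and 51.8 ± 9.86 CPM in control cells (SD, n = 3 each; log2 fold 0.59, SE 0.17, edgeR adjusted p = 0.0172). Its call was lost without control library 2 (edgeR adjusted p = 0.0625) or 3 (0.0670), without cKO library 1 (0.0575), or without library 3 of both groups (log2 fold 0.36, edgeR adjusted p = 0.0514).

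Genes of the proteins that share the nuclear bodies of these 2 RNAs were counted against the 17.6% called higher and 21.4% called lower over all genes. Of 16 nuclear speckle proteins tested, 10 rose and 0 fell, with a median log2 fold of 0.43, and without library 3 of both groups 12 rose and 3 fell. Rbm25, a splicing regulator, was at 510, 456 and 530 CPM in cKO and 245, 270 and 233 CPM in control libraries (log2 fold 1.002, SE 0.11, edgeR adjusted p = 9.70e-05). Clk1, a kinase that phosphorylates SR proteins, rose by 0.92, the SR protein Srsf7 by 0.71 and the speckle protein Pnn by 0.76. Of 26 paraspeckle proteins, 15 rose and 3 fell, with a median of 0.50. Srsf10, a splicing factor, was at 340, 318 and 269 CPM in cKO and 163, 168 and 150 CPM in control libraries (log2 fold 0.94, SE 0.12, edgeR adjusted p = 1.66e-04). Pspc1, a core paraspeckle protein, rose by 0.63, as did Hnrnph3, and Hnrnpr rose by 0.64. The other core proteins did not pass: Sfpq had a log2 fold of 0.21 (edgeR adjusted p = 0.239) and Nono of -0.09 (0.495). Rbm14, needed for paraspeckle assembly, fell by 0.90, and Smarca4 and Ubap2l fell by 0.47 and 0.40.

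**Figure D3:**
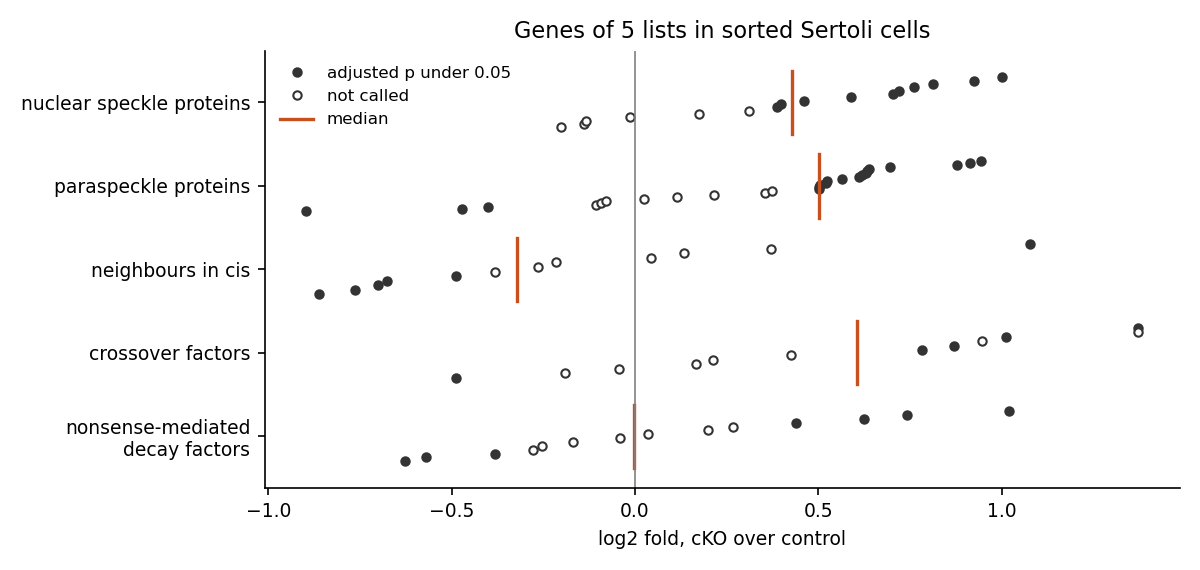
Log2 fold of cKO over control for the tested genes of 5 lists, 1 dot per gene, filled where the adjusted p is under 0.05, with the list's median as an orange line. The medians of the nuclear speckle (0.43) and paraspeckle (0.50) proteins lie right of 0, that of the listed genes around the members (-0.32) left of it, and that of the decay factors (-0.00) on it.

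Genes around the members on the chromosome were read from a list drawn up by name, 14 in all, of which 12 were tested. Only Parp2 rose among them and 5 fell, where 17.6% of all genes tested were higher and 21.4% lower, with a median log2 fold of -0.32. Slc3a2, the amino acid transporter subunit beside Snhg1, was at 323, 311 and 339 CPM in cKO and 575, 604 and 589 CPM in control libraries (log2 fold -0.86, SE 0.10, edgeR adjusted p = 1.31e-04), and Wdr74, on its other side, fell by 0.68. Tmem200b, which lies on the chromosome of Snhg12 but is not adjacent to it, fell by 0.76. The list thus does not follow distance, and it leaves out Stx5a, 14969 bases from Snhg1, and Taf12, 12911 bases from Snhg12. Its counts and median describe the listed genes only. Around Malat1 and Neat1, Frmd8 fell by 0.70 and Slc25a45 by 0.49. Parp2, a poly(ADP-ribose) polymerase on the far side of Rpph1 from Ccnb1ip1, was at 31.9, 32.6 and 33.4 CPM in cKO and 17.6, 17.6 and 11.1 CPM in control libraries (log2 fold 1.08, SE 0.18, edgeR adjusted p = 7.26e-04).

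Gm26917 was the member with the highest level per length and the one that fell. It had 3086, 1927 and 2026 counts in cKO libraries 1, 2 and 3, against 5591, 5126 and 2866 counts in the control libraries. The level was 168 ± 41.8 CPM in cKO and 368 ± 117 CPM in control cells (SD, n = 3 each; log2 fold -1.13, SE 0.23, edgeR adjusted p = 0.00312). The groups did not overlap, but control library 3, at 233 CPM, was close to cKO library 1, at 216 CPM. With no filter on low counts its call was lost (log2 fold -1.14, edgeR adjusted p = 0.0812).

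Gm26917 spans chr17:39843013-39846341 in mm10, with 1 annotated transcript of 869 exonic bases, and is absent from the RefSeq gene table. Rn18s-rs5, an 18S ribosomal RNA related sequence, begins 11 bases beyond its end. Ribosomal RNA genes have many near-identical copies, so the counts of Rn18s-rs5 are uncertain, and those of Gm26917 may be. Rn18s-rs5 was at 9.18, 3.68 and 6.07 CPM in cKO and 17.6, 14.4 and 10.99 CPM in control libraries (log2 fold -1.18, SE 0.30, edgeR adjusted p = 0.00834). Lars2, a mitochondrial leucyl-tRNA synthetase gene whose mouse annotation holds a ribosomal RNA-like repeat, was at 353, 176 and 182 CPM in cKO and 455, 660 and 333 CPM in control libraries (log2 fold -1.03, SE 0.31, edgeR adjusted p = 0.0271). These 2 were the tested genes of 23 listed abundant noncoding RNAs and related rows. Without control library 1 neither was called, and 1 of the 2 was called without control library 2, cKO library 2 or cKO library 3. Gm26917 and both of these rows were highest, among the cKO libraries, in library 1, and lowest, among the control libraries, in library 3, and how far leftover ribosomal RNA entered the counts of Gm26917 was not tested. The 3 genes most like Gm26917 over the 6 libraries were Fam222a (root mean square difference 0.040), Fzd9 (0.12), a Wnt receptor, and Ahdc1 (0.16). Fam222a was at 86.9, 64.7 and 58.1 CPM in the cKO libraries, with a log2 fold of -1.08.

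**Figure D4:**
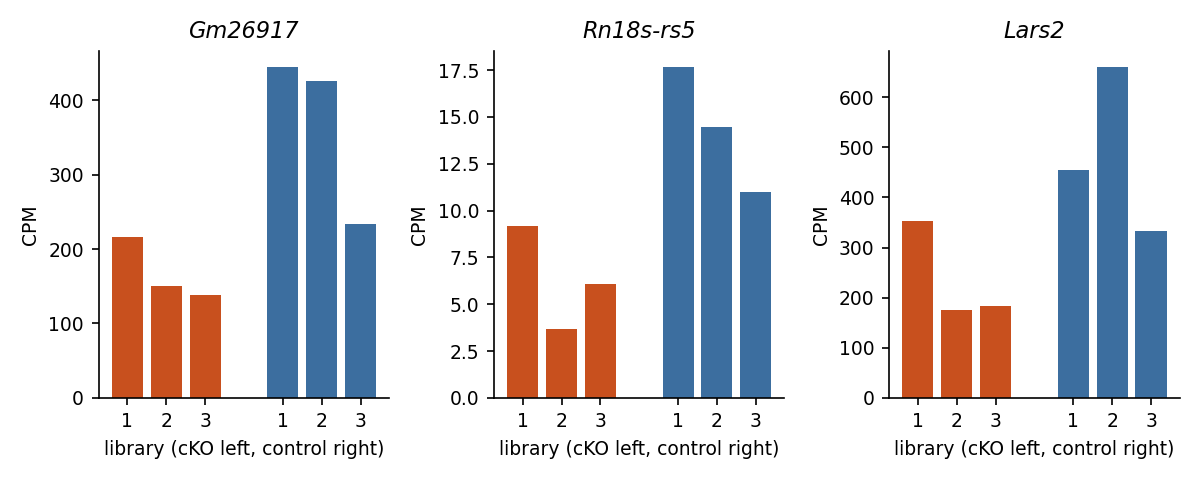
CPM of Gm26917, the neighbouring 18S related sequence Rn18s-rs5 and Lars2 in each sorted library, as bars from 0, cKO (orange) left of control (blue). Library 1 is the highest of the cKO bars and library 3 the lowest of the control bars in each panel.

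Per kilobase of the exon length listed in the table, Gm26917 was highest, at 159 to 249 CPM per kb in cKO and 268 to 511 in control libraries. Malat1 followed with 58.1 to 91.7 CPM per kb in cKO and 44.0 to 47.7 in control, and Neat1 with 19.9 to 29.2 in cKO and 13.8 to 20.3 in control. Gas5 was at 14.8 to 19.2 CPM per kb in cKO and 6.65 to 9.63 in control. Snhg12 and Snhg1 came next and overlapped each other in cKO libraries, at 8.33 to 12.6 and 8.34 to 9.17 CPM per kb, but not in control libraries, where they were at 4.64 to 5.81 and 4.06 to 4.55. All other neighbours in this order were apart in both groups, with Ccnb1ip1 at 0.272 to 0.650 CPM per kb in cKO and 0.270 to 0.422 in control and Meg3 at 0.00774 to 0.0377 in cKO and 0.00459 to 0.0396 in control. The listed exons cover 26.3% of the annotated span of Malat1, 14.5% of that of Neat1, 26.1% of that of Gm26917, 91.3% of that of Gas5 and all of that of Snhg1. The order therefore depends on the listed lengths, and by CPM alone Snhg1 was above Snhg12 in both groups.

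Of the imprinted RNAs, Meg3 was near 0 and Kcnq1ot1 was not measured. Meg3, at chr12:109541001-109571726, had 2, 7 and 10 counts in cKO libraries 1, 2 and 3, against 9, 1 and 7 in control libraries, which overlap fully (exact permutation p = 1.0 on CPM, two-sided). With 3 libraries against 3 that test cannot go below 0.10. None of the genes listed from the Meg3 imprinted cluster passed the filter, and their summed level was 0.700 to 1.17 CPM in cKO and 0.830 to 1.79 CPM in control libraries. Kcnq1ot1, at chr7:143212155-143296549, is among the genes with no annotated transcript and is listed at 0 in every library, which says nothing of its level, and Kcnq1, which overlaps all of it, had 2 counts in all. Of 11 listed imprinted genes around Kcnq1ot1, 5 were tested, 0 rose and 2 fell, beside 17.6% and 21.4% of all genes tested. The tetraspanin gene Cd81 was at 234, 212 and 204 CPM in cKO and 304, 325 and 349 CPM in control libraries (log2 fold -0.59, SE 0.11, edgeR adjusted p = 0.00129), and the histone chaperone gene Nap1l4 fell by 0.32. Cdkn1c, a cell cycle inhibitor of this cluster, was at 0.341 to 1.25 CPM in cKO and 0.570 to 0.913 CPM in control libraries and was not tested.

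Long noncoding RNAs outside the members were read from a list of 35, of which 29 were in the table and 10 were tested: 2 rose and 1 fell, where 17.6% of all genes tested were higher and 21.4% lower. Mir17hg, host of a microRNA cluster, rose by 1.02. Firre, an X-linked nuclear RNA, was at 262, 202 and 186 CPM in cKO and 163, 126 and 98.2 CPM in control libraries (log2 fold 0.75, SE 0.18, edgeR adjusted p = 0.00633). Trp53cor1, a p53-induced RNA at 1.23 to 1.61 CPM in cKO libraries, fell by 1.02, a call that DESeq2 did not give. Tug1 had a log2 fold of -0.16 (edgeR adjusted p = 0.308).

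In the sorted cells Ccnb1ip1 was close to the limit of detection. It had 14, 9 and 6 counts in cKO libraries 1, 2 and 3, against 8, 5 and 5 counts in the control libraries. The groups overlapped at 0.698 ± 0.286 CPM in cKO and 0.486 ± 0.130 CPM in control cells (SD, n = 3 each), and the gene did not pass the filter (exact permutation p = 0.30 on CPM, two-sided). A difference was not detectable at this depth. Of 12 tested crossover factors that work with Ccnb1ip1 in meiosis, 4 rose and 1 fell, beside 17.6% and 21.4% of all genes tested, with a median log2 fold of 0.60. Hfm1, a meiotic helicase, was at 7.14, 8.93 and 10.3 CPM in cKO and 3.18, 3.99 and 3.01 CPM in control libraries (log2 fold 1.37, SE 0.25, edgeR adjusted p = 0.00140). Cntd1, a cyclin-like crossover factor, rose by 1.01, the mismatch repair protein gene Mlh3 by 0.78 and the recombination initiator Spo11 by 0.87, and the nuclease gene Mus81 fell by 0.49. Without control library 1 or cKO library 1, 2 rose. Of the germ cell markers described above, 9 rose, 2 fell and the others tested were not called, beside the same 17.6% and 21.4%. Among those with the smallest p were the synaptonemal complex genes Sycp1, Sycp2 and Sycp3, which rose by 1.97, 1.76 and 1.84. The part of germ cell RNA in these values was not tested.

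In the cultured cells the same gene was at the top of the input. Ccnb1ip1 had 301, 303 and 466 counts in IP libraries 1, 2 and 3, against 135025, 164755 and 147140 counts in input libraries 1, 2 and 3. It averaged 14.7 ± 4.31 CPM in the IP and 9139 ± 632 CPM in the input (SD, n = 3 each), a log2 fold of -9.29, or 624-fold lower in the IP. These are the values by which it was chosen, and no test is given. It was the gene with the highest count in input libraries 1 and 2 and the second in input library 3, and ranked 7733, 7588 and 6538 by count in IP libraries 1, 2 and 3. Ccnb1ip1 took 1.04% of input counts on average, followed by Clu, a Sertoli cell secretory protein gene, with 0.962%, Actb with 0.932%, Sparc with 0.524% and Eef1a1 with 0.438%. In the IP the highest mean counts belonged to Scd2 (0.833%), a fatty acid desaturase gene, Actb (0.517%), Lbh (0.427%), Bgn (0.422%) and Serinc3 (0.421%). In the sorted libraries they belonged to the mitochondrial mt-Co1 (2.03% in cKO, 1.92% in control), and Ccnb1ip1 ranked 12739 to 14451 in cKO and 13110 to 14193 in control libraries.

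The next lowest genes over input among the 9201 that averaged at least 3 log2 CPM were the ribosomal protein gene Rps12 (log2 fold -7.44), Rpl26 (-6.72), the ATP synthase subunit gene Atp5e (-6.44), Rpl35 (-6.42) and Rps26 (-6.41). Rps12 had 73, 62 and 85 counts in IP and 7757, 9125 and 8736 counts in input libraries. By the same measure of likeness as above, over the 6 cultured libraries, Rps12 (root mean square difference 0.957), Rpl26 (1.34) and Rps26 (1.47) were nearest to Ccnb1ip1. These differences were larger than those given for Malat1 and Gm26917. Here the measure follows mainly the fold over input, by which Ccnb1ip1 was chosen, so it adds nothing to the order by fold. Of 12854 genes tested between IP and input, 43.0% were called higher and 44.8% lower, and 27.0% were lower with a log2 fold of -1 or below.

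**Figure D5:**
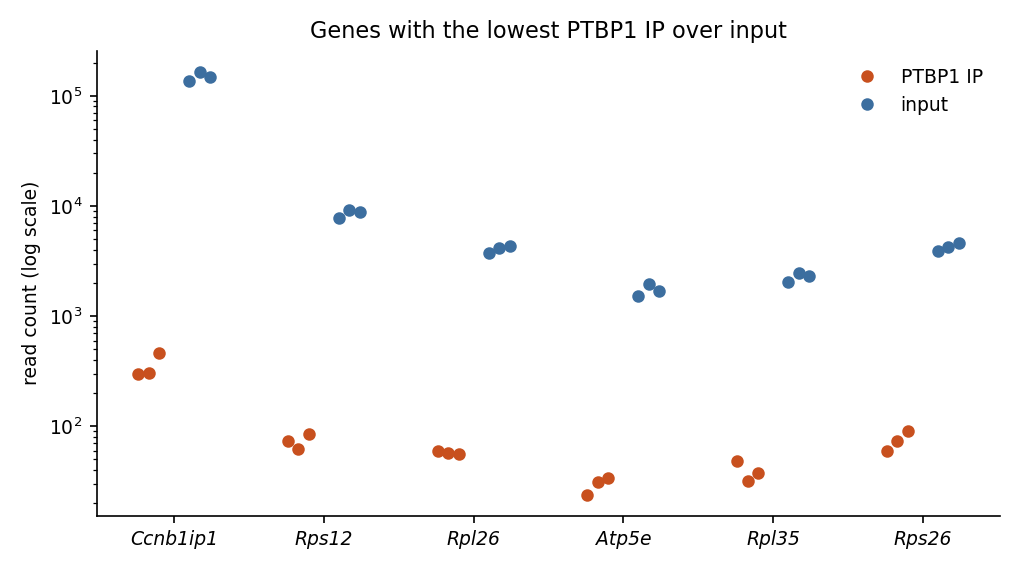
Read counts on a log axis, 1 dot per library, IP (orange) left of input (blue). Shown are the 6 genes with the lowest PTBP1 IP over input among the 9201 that averaged at least 3 log2 CPM. Ccnb1ip1 has 301 to 466 counts in IP and 135025 to 164755 in input libraries, and the 5 others have 24 to 90 counts in the IP libraries.

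Ccnb1ip1 lies at chr14:50789249-50795728 in mm10, with 1508 exonic bases in the table of the sorted cells. No gene listed there overlaps it. Ttc5 lies 3730 bases from it, and 11720 bases away on the other side lies Rpph1, the RNA of ribonuclease P, which RNA polymerase III transcribes and which carries no poly(A) tail, with Parp2 just beyond. Rpph1 has no annotated transcript in the table of the sorted cells and is not listed in that of the cultured cells, which gives no positions, so which bases its Ccnb1ip1 counts cover is not known here. Parp2 was at 5.56, 5.63 and 5.27 CPM in IP and 23.6, 25.2 and 22.7 CPM in input libraries (log2 fold -2.12, SE 0.09, edgeR adjusted p = 2.20e-14), and Ttc5 was at 45.8, 45.0 and 50.5 CPM in IP and 33.5, 33.8 and 34.0 CPM in input libraries (log2 fold 0.48). Neither neighbour was near the input level of Ccnb1ip1. The sorted and the cultured libraries differ in cells, in selection for poly(A) and in the table they were normalized in, so the level under 1 CPM in the one and that in the other are set side by side and not compared. Of 10 other crossover factors tested in the cultured cells, 2 were higher in the IP and 4 lower, beside 43.0% and 44.8% of all genes tested. Cdk2, a kinase that also works in the somatic cell cycle, had the smallest p, at 187, 191 and 174 CPM in IP and 63.8, 63.0 and 59.8 CPM in input libraries (log2 fold 1.57).

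The authors' deposited table of their own test of cKO over control gives signed folds of 1.79 for Malat1, 1.55 for Neat1, 2.08 for Gas5, 2.16 for Snhg1, 1.88 for Snhg12 and -2.12 for Gm26917 (minus the control-to-cKO ratio for a fall). The adjusted p-values in the authors' deposited table are 0.0200 for Neat1 and between 1.71e-09 and 0.00102 for the other 5. For Ccnb1ip1 the authors' deposited table gives a signed fold of 1.46 with an adjusted p of 1.0.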

How the data were processed

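The authors deposited whole-number read counts per gene, with no normalization, in 1 table of the sorted and 1 of the cultured libraries. Per the submitters' processing notes the tools were STAR, Bowtie2 2.3.5.1, HTSeq, cutadapt, bcl2fastq 2.20 and DESeq2, and the build was mm10; their order and the table each served are not given in the sources used here. The deposited table of the sorted libraries also holds gene positions, exon lengths, annotated transcripts and the authors' own p-values and signed fold, a score that is negative for a fall. Its columns name the group and a running library number that no sample label gives, so libraries are numbered within their group in table order, and library 3 of both groups is no pair, and 84 other per-library columns were not used.

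The test was edgeR 4.0.16 under R 4.3.3 (filterByExpr, TMM, robust quasi-likelihood fit, Benjamini-Hochberg adjustment over all genes tested, threshold 0.05), each table on its own 6 libraries. Alternatives were DESeq2 1.42.0 and its size factors, library size alone, no filter, leaving out libraries or mitochondrially encoded genes, and a replicate block. Another left Pol I and III RNAs, Gm26917 and Ccnb1ip1 out of the scaling only, with all genes still tested. The fit was also run on simulated counts with few changed genes, balanced between higher and lower. That setting differs from the many genes called here, and no result rests on it. No 2 libraries of a group were duplicates: the smallest chi-square was 2.13 times its degrees of freedom. The standard error of a log2 fold is its size divided by the root of F. Log2 CPM used a prior count of 2.

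The members and lists were chosen with earlier results of these data known. Named were the members, up to 4 genes per list with the smallest p, the 5 highest counts per group, the 3 genes most like Malat1, Gm26917 and Ccnb1ip1, genes overlapping a member, Ptbp1 and markers. Others (Snhg3, Snhg15, Snhg17, Snhg18, Snhg20, Epb41l4aos, Sfpq, Nono, Rbm14, Smarca4, Ubap2l, Wdr74, Slc25a45, Ttc5, Tug1, Cdkn1c, Spo11, Atp5e and Rpl35) were chosen after their values were seen. One gene was left out of a list and is not reported here. Sequences are from RefSeq, build GRCm38.p6.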

Additional observations from a re-analysis of the deposited data

How the results depend on the processing

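The calls of Malat1, Gas5, Snhg1 and Snhg12 and their direction held under all 13 alternatives. Neat1 kept its direction, with log2 folds from 0.44 to 0.74 with 1 library left out, and lost its call in 3 of these 6 settings and without library 3 of both groups (0.36). Gm26917 ranged from -1.38 to -0.96 with 1 library left out and was called each time, but not when every gene with a count was tested (-1.14, adjusted p = 0.0812); the cause was not tested. With library size alone 1863 genes were lower, against 2870 with TMM. No paired analysis was possible for the sorted libraries because their columns carry a running library number, different in each group, that no sample label gives, so the columns cannot be tied to the numbered samples. In the cultured libraries, same-numbered IP and input libraries carry matching numbers in their names, whose meaning is not given. Deviations of these same-numbered libraries correlated at 0.12, 0.04 and 0.18 over genes. Each input library correlated best with the IP library of its own number, but IP library 2 correlated best with input library 1 (0.06). Whether the numbers mark pairs was thus not settled, and the main fit was unpaired. With a replicate block 5628 genes were higher and 5834 lower, and Ccnb1ip1 was at -9.29. Its log2 fold ranged from -9.65, with library size alone, upwards over the alternatives. Meg3 and Ccnb1ip1 were too low in the sorted libraries to be tested at this depth.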

Other observations

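In the PTBP1 IP over input, genes of the nuclear bodies of Malat1 and Neat1 and of the decay pathway of the snoRNA hosts were called in both directions, where 43.0% of all genes tested were higher and 44.8% lower. Of 16 nuclear speckle proteins 6 were higher and 9 lower: the scaffold gene Srrm2 had a log2 fold of 1.20, and Srsf3, Clk1 and Srsf7 had -1.89, -1.68 and -1.06. Of 26 paraspeckle proteins 9 were higher and 16 lower, with Rbm14 at 1.77 and Hnrnpa1 at -2.04. Of 14 decay factors 5 were higher and 9 lower: the kinase gene Smg1 was at 1.61, and the exon junction genes Magoh, Rbm8a and Eif4a3 at -4.28, -2.58 and -2.39. Zbtb37, which overlaps Gas5, was at 223, 216 and 207 CPM in IP and 47.5, 50.5 and 49.5 CPM in input libraries (log2 fold 2.13, SE 0.05, edgeR adjusted p = 5.36e-18). Snhg4, the one tested snoRNA host of the cultured table, was under 1 CPM in every library and had a log2 fold of -1.38 (edgeR adjusted p = 0.00414).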
